A study of Mus musculus with 18 samples.

Results

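The voltage-gated sodium channels, the voltage-gated calcium channels, the hyperpolarization-activated HCN channels and the sodium leak channel Nalcn were followed in sorted neurons of the neonatal mouse cortex. They were taken by gene symbol and make up 36 of the 24015 genes of the count table. They comprise 10 sodium channel alpha subunits, 4 sodium channel beta subunits, 9 calcium channel alpha1 subunits, 8 auxiliary calcium channel subunits (4 alpha2delta and 4 beta), 4 HCN subunits and Nalcn. The sodium channel usually written Scn2a appears in the table under its older symbol Scn2a1.

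Voltage-gated sodium channels open on depolarization and carry the rising phase of the action potential; the alpha subunit forms the pore and beta subunits alter its gating and its place in the membrane. Voltage-gated calcium channels turn depolarization into calcium entry, for transmitter release, gene regulation or burst firing according to the alpha1 subunit, while alpha2delta and beta subunits bring the pore to the surface. HCN channels open on hyperpolarization and carry a depolarizing current that sets resting potential and rhythm, and Nalcn carries a steady sodium leak. Cortical neurons change their set of these channels as they mature after birth.

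RNA was measured in 12 libraries of tdTomato-positive neurons sorted from cortices at postnatal day 5, with about 25000 cells each. The 3 groups, of 4 libraries each, were layer 6 neurons of Tbr1 null mice (null L6), layer 5 neurons of wild-type mice (WT L5) and layer 6 neurons of wild-type mice (WT L6). Tbr1 encodes a transcription factor of the T-box family, made in the deep layers of the cortex. The mutant bears the label of a layer 6 null, although a constitutive null is named in the design text. Which part of the gene is missing, and which driver marks the cells with tdTomato, is not stated in the labels. All layer 6 libraries were of sequencing batch A, WT L5 replicates 1 and 2 of batch B and replicates 3 and 4 of batch C, so that layer and batch cannot be told apart. Whether each replicate was a different animal is not stated in the labels, and p-values then measure only the spread between these libraries, which may be technical.

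Library totals ran from 27465597 to 54899002 counted reads. Values are given as CPM, a gene's reads set against the total of its library on the usual CPM scale, with the totals adjusted by the TMM method over all 12 libraries. They are not divided by gene length, so levels of different genes are not compared. Tbr1 was at 94.7 ± 2.42 CPM in null L6, 42.6 ± 2.37 CPM in WT L5 and 176 ± 6.84 CPM in WT L6 (SD, n = 4 each); reads of Tbr1 thus remained in the null libraries, at a level between those of the WT groups. Libraries 1 and 2 and libraries 3 and 4 of each layer 6 group, which share a digit in their label codes, were more alike than other pairs: the chi-square per degree of freedom between them was 9.003 and 10.8 in null L6, where other pairs had at least 23.1, and 3.26 and 5.18 in WT L6, where other pairs had at least 10.9. In WT L5, replicates 1 and 3 and replicates 2 and 4 were closest, at 1.40 and 1.33, near the 1 of counting error alone, although the libraries of each such pair are of different sequencing batches. Whether such a pair is 1 sample sequenced again is not stated in the labels; if so, n is 2 in WT L5. WT L6 libraries 1 and 2 stood apart in Xist, the RNA of X inactivation, at 0.458 and 0.448 CPM, against 289 and 287 CPM in WT L6 libraries 3 and 4. Xist was at 262 to 299 CPM in null L6 and 39.5 to 41.1 CPM in WT L5, so that every comparison is unbalanced for it; the part of this in the differences was not tested. In sorted bulk samples, fewer cells of a type and less RNA per cell cannot be told apart.

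Between null and WT L6, the channel genes moved in both directions and by modest amounts. Scn2a1 fell, while its neighbours in the chromosome 2 sodium channel cluster, Scn1a and Scn9a, rose. The alpha2delta subunits Cacna2d1 and Cacna2d3, the beta subunit Cacnb2 and Nalcn rose too. Of the 29 members with enough reads for the test, 10 were higher and 5 lower in the null at an adjusted p under 0.05 (edgeR's quasi-likelihood test, Benjamini-Hochberg over 14588 genes). With the layer 6 libraries that share a label digit summed, these counts were 5 higher and 1 lower, of 31 members tested. Of 29 tested, they were 7 and 1 with that pair as a random term in limma, and 7 and 1 without WT L6 libraries 1 and 2. The share of all genes that passed was not computed in those alternative fits, so their counts cannot be set against it. Over all genes tested in the main fit, 14.2% passed, 7.31% higher and 6.86% lower. The null and WT L6 libraries did not overlap for 16 of the 29 members, against 19.9% of all genes tested. The median log2 fold change was -0.050 over the members and 0.00034 over all genes.

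Sodium channel alpha subunits split in the null. Of Scn1a, Scn2a1, Scn3a, Scn8a and Scn9a, 2 rose and 1 fell. Scn2a1, the main sodium channel of the axon initial segment of young pyramidal neurons, had 231, 224, 223 and 211 CPM in null L6, 228, 240.0, 224 and 240.4 CPM in WT L5 and 291, 307, 296 and 295 CPM in WT L6. All null libraries lay below all WT L6 libraries, within the range of the WT L5 libraries or under it. The log2 fold change over WT L6 was -0.42 ± 0.034 (± SE, as for all log2 fold changes), a 1.34-fold lower level, with an adjusted p of 3.12e-06.

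Scn1a, whose protein is best known from inhibitory interneurons, had 25.4, 24.2, 23.0 and 20.5 CPM in null L6, 18.03, 16.8, 19.3 and 16.6 CPM in WT L5 and 20.4, 19.6, 19.1 and 17.8 CPM in WT L6. The null libraries lay just above those of WT L6, with a log2 fold change of 0.28 ± 0.069 and an adjusted p of 0.0176. Scn9a, known above all from pain-sensing neurons, had 11.4, 11.1, 10.5 and 9.32 CPM in null L6, 6.65, 7.95, 7.01 and 7.08 CPM in WT L5 and 6.12, 8.30, 7.18 and 6.65 CPM in WT L6. Both WT groups shared one range and every null library was above it. Over WT L6 the log2 fold change of Scn9a was 0.59 ± 0.10, with an adjusted p of 0.0015. Scn3a, the fetal sodium channel, was at 145 ± 3.78 CPM in the null and 150.3 ± 1.41 CPM in WT L6, and Scn8a, the sodium channel of mature axon initial segments and nodes, at 40.9 ± 1.93 CPM in the null and 43.1 ± 1.55 CPM in WT L6 (SD, n = 4 each). Their adjusted p values were 0.304 for Scn3a and 0.311 for Scn8a.

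Of the 36 members, 8 lie on chromosome 2, and 5 of these form a run of sodium channel genes in the order Scn3a, Scn2a1, Scn1a, Scn9a and Scn7a. Along that run the log2 fold changes in the null were -0.05, -0.42, 0.28 and 0.59, and Scn7a had 2 to 7 reads in null L6 and 2 to 8 reads in WT L6 libraries and was not tested. Members next to each other in this run therefore moved in opposite directions, Scn2a1 down and Scn1a up. Other genes between them were not examined, and the call of Scn1a did not hold in all settings, as given below. The 250 bases before the annotated starts of the 3 genes that changed are shown because the change separates these neighbours; sequences are from RefSeq on build GRCm38.p6, read 5′ to 3′ on the gene's strand, with CG dinucleotides in capitals. Scn2a1 has a start at each of 2 windows.
Scn2a1 first window, chr2:65620519-65620768, plus strand: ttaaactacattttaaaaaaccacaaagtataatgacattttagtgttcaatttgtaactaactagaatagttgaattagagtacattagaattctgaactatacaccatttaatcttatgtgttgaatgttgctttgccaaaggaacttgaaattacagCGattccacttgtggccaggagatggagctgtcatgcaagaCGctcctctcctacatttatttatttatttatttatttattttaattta
Scn2a1 second window, chr2:65668436-65668685, plus strand: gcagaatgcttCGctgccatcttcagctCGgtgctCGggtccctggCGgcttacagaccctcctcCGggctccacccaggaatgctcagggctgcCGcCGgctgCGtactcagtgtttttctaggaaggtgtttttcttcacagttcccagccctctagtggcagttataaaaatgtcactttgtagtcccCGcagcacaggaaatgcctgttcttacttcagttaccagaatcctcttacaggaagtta
Scn1a window, chr2:66440838-66441087, minus strand: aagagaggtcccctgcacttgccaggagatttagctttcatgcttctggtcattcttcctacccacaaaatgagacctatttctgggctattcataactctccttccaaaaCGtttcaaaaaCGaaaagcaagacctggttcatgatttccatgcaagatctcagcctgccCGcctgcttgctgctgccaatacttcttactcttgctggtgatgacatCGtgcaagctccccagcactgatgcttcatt
Scn9a window, chr2:66634963-66635212, minus strand: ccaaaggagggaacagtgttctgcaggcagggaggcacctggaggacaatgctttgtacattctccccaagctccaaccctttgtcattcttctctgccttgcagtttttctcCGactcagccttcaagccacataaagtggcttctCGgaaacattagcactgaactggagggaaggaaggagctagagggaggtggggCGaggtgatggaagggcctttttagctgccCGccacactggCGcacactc
These windows hold 2, 9, 4 and 5 CG dinucleotides in the order printed, against a median of 6 over all 32851 windows of the RefSeq table and 8.5 over the 36 windows of the members. Windows were found for 26 of the 36 members; Cacna1a, Cacna1g, Cacna1h, Cacna2d4, Hcn3, Scn3a and Scn3b were among those with none in the table.

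Of the sodium channel beta subunits, Scn3b rose slightly in the null. Scn3b, a beta subunit abundant in the embryonic and newborn brain, had 291, 293, 293 and 282 CPM in null L6, 79.6, 88.3, 83.4 and 82.5 CPM in WT L5 and 271, 271, 276 and 266 CPM in WT L6, a log2 fold change of 0.10 ± 0.029 over WT L6 with an adjusted p of 0.0452. The null libraries lay above those of WT L6 by a few percent of the level. Scn2b, a beta subunit of more mature neurons, had a log2 fold change of -0.24 ± 0.11 (95% interval -0.49 to 0.0033). It missed the threshold, with an adjusted p of 0.191. Scn4b, a beta subunit linked to resurgent current, had 3 to 7 reads in null L6 and 2 to 6 reads in WT L6 libraries and was not tested.

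Among calcium channel alpha1 subunits, 1 rose and 2 fell of 8 tested. Cacna1e, the pore of R-type channels, had 133, 137, 152 and 148 CPM in null L6, 129.5, 129.7, 129 and 127 CPM in WT L5 and 119, 128, 128 and 127 CPM in WT L6. The log2 fold change over WT L6 was 0.18 ± 0.044, with an adjusted p of 0.0135, and the lowest null library was not far above the highest WT library. The T-type subunits, which open at low voltage and support burst firing, had members that fell. Cacna1i had 25.5, 26.6, 21.6 and 24.1 CPM in null L6, 157, 156, 158 and 155 CPM in WT L5 and 28.7, 31.2, 27.5 and 26.9 CPM in WT L6, and fell by 0.22 on the log2 scale (adjusted p = 0.0468). Cacna1h had 119, 127, 125 and 125 CPM in null L6, 102, 102, 107 and 101 CPM in WT L5 and 136, 136, 136 and 133 CPM in WT L6, with a log2 fold change of -0.13 ± 0.030 and an adjusted p of 0.0129. The null and WT L6 libraries did not overlap for either gene, and for Cacna1i both lay far below WT L5. The third T-type subunit, Cacna1g, had a log2 fold change of -0.10 ± 0.081 (adjusted p = 0.47). Cacna1a of P/Q-type channels and the L-type subunits Cacna1c and Cacna1d had log2 fold changes of 0.14, -0.0023 and -0.14 and adjusted p values of 0.0931, 0.975 and 0.137. Cacna1a was called higher in 2 alternative fits, without WT L6 library 2 and with all 12 libraries in 1 fit, at adjusted p values of 0.0283 to 0.0408.

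Of 7 auxiliary calcium channel subunits tested, 3 were higher and 1 lower in the null. Cacna2d1, an alpha2delta subunit that gabapentin binds, had 245, 235, 245 and 247 CPM in null L6, 80.5, 85.6, 81.0 and 83.1 CPM in WT L5 and 191, 194, 202 and 209 CPM in WT L6. Its log2 fold change over WT L6 was 0.29 ± 0.035, with an adjusted p of 9.09e-05. Every null library was above every WT L6 library, and all layer 6 libraries were above all layer 5 libraries. Cacna2d3, another alpha2delta subunit, had 66.1, 66.1, 54.9 and 56.2 CPM in null L6, 26.1, 27.0, 25.8 and 25.7 CPM in WT L5 and 43.8, 44.9, 40.4 and 39.7 CPM in WT L6. Its log2 fold change of 0.53 ± 0.067 amounted to a 1.44-fold higher level (adjusted p = 1.32e-04), and the order of the groups was the same as for Cacna2d1. Cacnb2, a beta subunit known best from the heart, had 10.3, 9.08, 9.86 and 10.6 CPM in null L6, 9.15, 8.36, 9.54 and 9.44 CPM in WT L5 and 6.82, 6.63, 5.93 and 5.44 CPM in WT L6. Here the null libraries lay with those of layer 5, above WT L6, at a log2 fold change of 0.69 ± 0.093 (adjusted p = 2.26e-04). Cacnb3, a neuronal beta subunit, went the other way, with 164, 178, 181 and 182 CPM in null L6, 262, 252, 267 and 254 CPM in WT L5 and 201, 188, 194 and 193 CPM in WT L6, a log2 fold change of -0.14 ± 0.037 and an adjusted p of 0.027. Cacna2d2, Cacnb1 and Cacnb4 had log2 fold changes between -0.11 and -0.069 and did not pass.

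The windows before the starts of the 2 alpha2delta genes that rose together are shown because both are far richer in CG dinucleotides, again in capitals, than those of the sodium channel run.
Cacna2d1 window, chr5:15934441-15934690, plus strand: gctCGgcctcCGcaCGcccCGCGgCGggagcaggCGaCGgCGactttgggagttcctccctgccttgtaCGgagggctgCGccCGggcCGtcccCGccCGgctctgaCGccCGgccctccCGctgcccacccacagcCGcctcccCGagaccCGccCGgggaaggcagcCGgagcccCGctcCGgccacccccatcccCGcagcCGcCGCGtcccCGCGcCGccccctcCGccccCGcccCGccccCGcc
Cacna2d3 window, chr14:29721865-29722114, minus strand: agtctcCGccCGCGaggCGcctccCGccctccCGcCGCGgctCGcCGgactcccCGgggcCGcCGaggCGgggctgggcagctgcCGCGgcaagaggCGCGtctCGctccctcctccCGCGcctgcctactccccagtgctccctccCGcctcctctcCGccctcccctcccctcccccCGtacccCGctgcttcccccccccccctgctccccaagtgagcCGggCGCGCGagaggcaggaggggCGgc
They hold 36 and 30 CG dinucleotides. At least 20 were present in a window of 7 of 7 auxiliary calcium channel genes with windows (8 of 12 windows), of 3 of 6 alpha1 genes (3 of 9 windows) and of 1 of 8 sodium channel alpha genes, Scn8a (1 of 10 windows), against 17.9% of all windows. This is a description of the sequence and was not related to the changes by a test.

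The HCN subunit gene Hcn3 and Nalcn also changed in the null. Hcn3 had 38.5, 37.9, 39.6 and 36.7 CPM in null L6, 26.8, 25.9, 26.7 and 28.1 CPM in WT L5 and 42.9, 42.9, 42.0 and 43.2 CPM in WT L6, and fell by 0.16 on the log2 scale (adjusted p = 0.0123). Nalcn had 46.1, 49.8, 51.3 and 48.4 CPM in null L6, 42.1, 43.1, 42.2 and 44.0 CPM in WT L5 and 43.8, 38.7, 38.7 and 38.7 CPM in WT L6. WT L6 library 1 was nearest to the null libraries, which were all above it, and the log2 fold change was 0.29 ± 0.051 with an adjusted p of 0.00182. Hcn2 and Hcn4 had log2 fold changes of -0.02 ± 0.064 and 0.05 ± 0.045, with adjusted p values of 0.854 and 0.523.

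**Figure D1:**
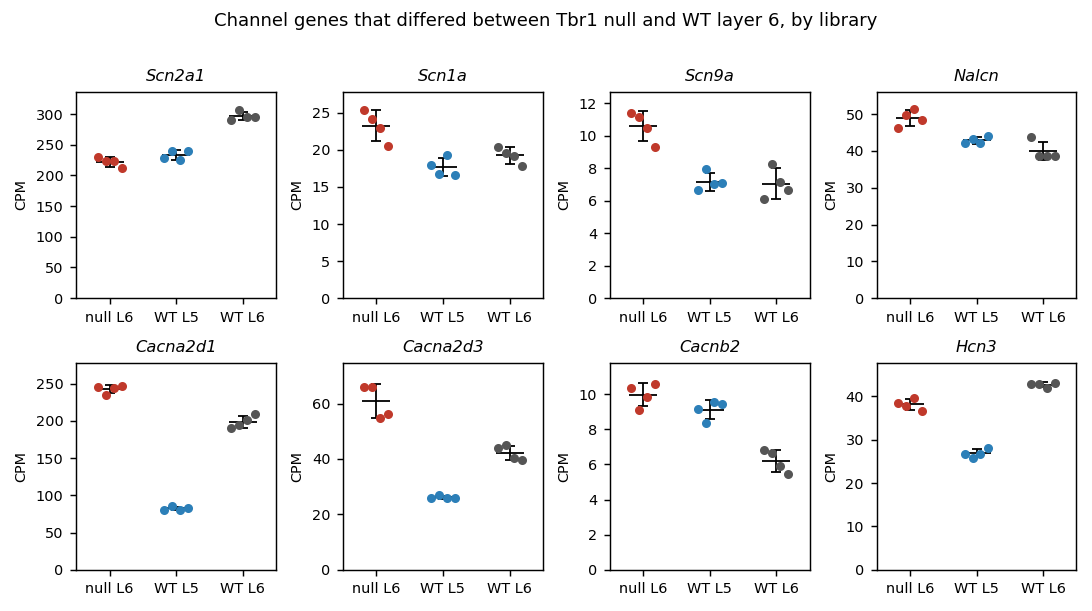
CPM of 8 channel genes (y axes from 0) in each library of Tbr1 null L6, WT L5 and WT L6 (x axes); points are libraries in replicate order, horizontal bars the group mean and whiskers the SD over 4 libraries. The null libraries of Scn2a1 and Hcn3 lie below those of WT L6, and those of the other 6 genes lie above.

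The calls of Scn2a1, Scn9a, Cacna2d1, Cacna2d3 and Cacnb2 held in all 19 alternative settings, including the one in which the libraries that share a label digit were summed, leaving 2 against 2. Summing left 6 calls of the 15; for Nalcn the adjusted p was then 0.069. Leaving out 1 library ended 4 calls. Scn1a lost its call without WT L6 library 4 (adjusted p = 0.0547), null library 1 (0.052) or null library 2 (0.0501). Its adjusted p was 0.206 with the libraries that share a label digit summed and 0.0577 with that pair as a random term in limma. Without WT L6 libraries 3 and 4, a setting added after the data were seen, the adjusted p of Scn1a was 0.125. Cacna1i lost it without WT L6 library 1, 2 or 3 or null library 1, 3 or 4 (adjusted p from 0.0583 to 0.132), and Cacnb3 without WT L6 library 1, 3 or 4 or null library 1 or 2 (0.0554 to 0.0729). Scn3b lost it without any 1 library but null library 4 (0.0614 to 0.125), and also with upper-quartile scaling. Without WT L6 libraries 1 and 2, a setting chosen after the data were seen, Cacna1e, Hcn3 and Cacna1h had adjusted p values of 0.0842, 0.0832 and 0.0682.

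Marker genes of several cell types differed with the genotype as well. The summed level of 10 layer 6 corticothalamic markers was 625 to 668 CPM in null L6 and 862 to 914 CPM in WT L6, with 1 higher and 6 lower. Tbr1, the mutated gene, is in this list, at 94.7 CPM in null L6 and 176 CPM in WT L6. The sum is therefore not independent of the mutated gene. Of 10 layer 5 projection neuron markers 4 were higher, at summed levels of 1137 to 1198 CPM in the null and 975 to 1036 CPM in WT L6. Of 16 interneuron markers 1 was higher and 6 lower (532 to 547 CPM in the null and 570.1 to 594 CPM in WT L6), and of 15 astrocyte markers 7 were higher and 2 lower (1741 to 1793 CPM in the null and 1485 to 1662 CPM in WT L6). Markers of the oligodendrocyte lineage summed to 269.8 to 284 CPM in the null, where 1 of 13, Mobp, was at 0 in all 4 libraries, and to 281 to 293 CPM in WT L6. Of the 10 tested, 2 were higher and 5 lower. Microglia markers summed to 135 to 144 CPM in the null and 138 to 146 CPM in WT L6, with 1 of 13 lower. Vascular markers summed to 435 to 448 CPM in the null and 476 to 483 CPM in WT L6, with 3 of 13 lower. Dividing progenitor markers summed to 534 to 549 CPM in the null and 497 to 505 CPM in WT L6, with 3 of 10 higher. Cortical excitatory neuron markers, a list that also holds Tbr1, summed to 1998 to 2136 CPM in the null and 2126 to 2325 CPM in WT L6. Of these 10 markers, 1 was higher and 4 lower. The part of these shifts in the changes of the channel genes was not tested.

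**Figure D2:**
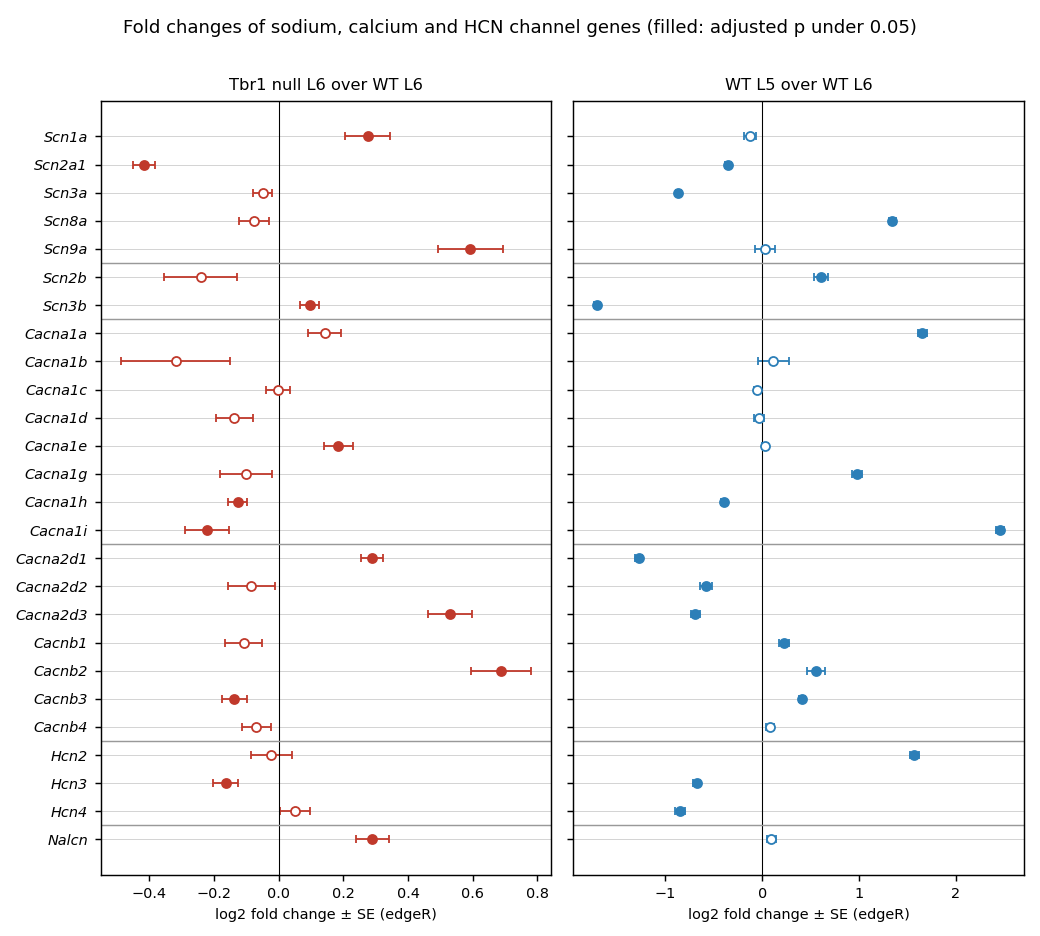
Log2 fold change (x axes) of channel genes tested in every comparison (rows, in family order with lines between families) in Tbr1 null L6 over WT L6, left, and WT L5 over WT L6, right; the scales of the x axes differ, whiskers are SE and filled points have an adjusted p under 0.05. The changes shown in the null stay within 0.69 of 0, while those between layers reach 2.45.

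Between WT L5 and WT L6, differences in the channel genes were larger. Layer 5 libraries had more Cacna1i, Cacna1a, Hcn2, Scn8a and Cacna1g, and less Scn3b, Cacna2d1, Scn3a and Hcn4. Of the 29 members tested in every comparison, 11 were higher and 10 lower in layer 5. A further 3, Scn4b, Scn7a and Cacna2d4, passed the filter on low reads only through WT L5, so that their direction was set by the filter, and they are described by their reads alone. Across all 14927 genes tested 85.5% passed, 42.2% higher and 43.4% lower, so that passing the threshold sets no member apart. Groups did not overlap for 21 of the 29 members, against 81.3% of all genes. The median log2 fold change was 0.031 over the 29 members and -0.010 over all genes. All 21 calls held in each alternative setting that could test the gene.

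Among the sodium channel alpha subunits, Scn8a was higher and Scn3a and Scn2a1 lower in layer 5. Scn8a had 106, 111, 113 and 109 CPM in WT L5 and 44.8, 44.1, 42.1 and 41.6 CPM in WT L6, a log2 fold change of 1.34 ± 0.035 (adjusted p = 6.20e-14). Scn3a went the other way, with 82.1, 85.1, 83.1 and 80.8 CPM in WT L5 and 148, 151.2, 150.7 and 151.1 CPM in WT L6, a log2 fold change of -0.87 ± 0.028 (adjusted p = 5.35e-13). The groups were far apart for both genes, and the SD within a group did not exceed 3.05 CPM. Scn2a1 fell by 0.35 on the log2 scale (adjusted p = 1.64e-08), while Scn1a and Scn9a had log2 fold changes of -0.13 ± 0.063 and 0.03 ± 0.10 and did not pass (adjusted p = 0.078 and 0.819). Scn7a, a sodium-sensing relative of these channels known from glia, had 18 to 31 reads in WT L5 libraries and 2 to 8 in WT L6 libraries.

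Of the beta subunits, Scn3b was lower and Scn2b higher in layer 5. Scn3b, with its values given above, was 3.26-fold lower in layer 5 at a log2 fold change of -1.70 ± 0.031 (adjusted p = 1.48e-15). Scn2b had 25.1, 24.7, 25.4 and 24.3 CPM in WT L5 and 15.5, 19.5, 15.2 and 15.2 CPM in WT L6, a log2 fold change of 0.61 ± 0.073 (adjusted p = 2.05e-06). WT L6 library 2 was the highest of its group for Scn2b and still below every layer 5 library. Scn4b had 1.73, 2.31, 1.82 and 1.77 CPM in WT L5, from 48 to 79 reads, and 0.0416, 0.0895, 0.109 and 0.108 CPM in WT L6, from 2 to 6 reads.

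Among the calcium channel pores, Cacna1i differed most. It was 5.47-fold higher in layer 5, at a log2 fold change of 2.45 ± 0.041 (adjusted p = 5.95e-16). Cacna1a, the pore that serves transmitter release at many mature synapses, had 104, 105, 101 and 96.8 CPM in WT L5 and 31.8, 35.5, 31.2 and 31.1 CPM in WT L6, a log2 fold change of 1.65 ± 0.044 (adjusted p = 7.76e-14). Cacna1g had 112, 104, 112 and 107 CPM in WT L5 and 61.2, 57.0, 51.4 and 50.8 CPM in WT L6, a log2 fold change of 0.98 ± 0.053 (adjusted p = 2.29e-10). The T-type genes therefore did not move together between layers: Cacna1i and Cacna1g were higher and Cacna1h lower, the last at a log2 fold change of -0.40 (adjusted p = 3.54e-09). Cacna1c, Cacna1d and Cacna1e had log2 fold changes between -0.055 and 0.031 and did not pass.

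Of the auxiliary calcium channel subunits, the alpha2delta genes Cacna2d1, Cacna2d2 and Cacna2d3 were lower in layer 5 and 3 of 4 beta genes higher. Cacna2d1 was 2.42-fold lower, with a log2 fold change of -1.28 ± 0.034 (adjusted p = 7.18e-14). Cacna2d3 and Cacna2d2 had log2 fold changes of -0.69 ± 0.046 and -0.58 ± 0.057 (adjusted p = 2.60e-09 and 2.29e-07). The other alpha2delta gene, Cacna2d4, had 19 to 41 reads in WT L5 libraries and 1 to 8 in WT L6 libraries, and no direction is given for it. Cacnb2, Cacnb3 and Cacnb1 rose by 0.55, 0.41 and 0.22 on the log2 scale (adjusted p = 4.67e-05, 2.26e-09 and 0.00105), and Cacnb4 missed the threshold at 0.08 ± 0.039 (adjusted p = 0.0651).

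Of the HCN genes, Hcn2 was higher and Hcn3 and Hcn4 were lower in layer 5. Hcn2, an HCN subunit of much of the brain, had 70.7, 71.1, 67.7 and 71.7 CPM in WT L5 and 23.3, 26.2, 23.0 and 22.3 CPM in WT L6, a log2 fold change of 1.57 ± 0.046 (adjusted p = 1.85e-13). Hcn4, the slow subunit known from the cardiac pacemaker and the thalamus, had 19.8, 20.5, 22.5 and 22.5 CPM in WT L5 and 38.8, 40.0, 37.7 and 36.5 CPM in WT L6, a log2 fold change of -0.85 ± 0.052 (adjusted p = 8.53e-10). Each layer kept a narrow range for both genes, with no overlap. Hcn3 had a log2 fold change of -0.68 ± 0.038 (adjusted p = 3.51e-10), and Nalcn had a log2 fold change of 0.09 ± 0.044 (adjusted p = 0.0555). Of the 8 members that did not pass, Cacna1b, Cacna1c, Cacna1e, Cacnb4, Nalcn and Scn1a did so in at least 1 alternative setting. Among these, leaving out WT L6 library 2 did so for Cacna1c, WT L6 library 4 or WT L5 library 1 for Cacnb4, WT L6 library 1 for Nalcn, and WT L6 library 4 or WT L5 library 3 for Scn1a; over all settings that called them, their adjusted p was 0.00445 to 0.0264, 0.000725 to 0.0472, 0.00123 to 0.0231 and 0.0119 to 0.0291.

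**Figure D3:**
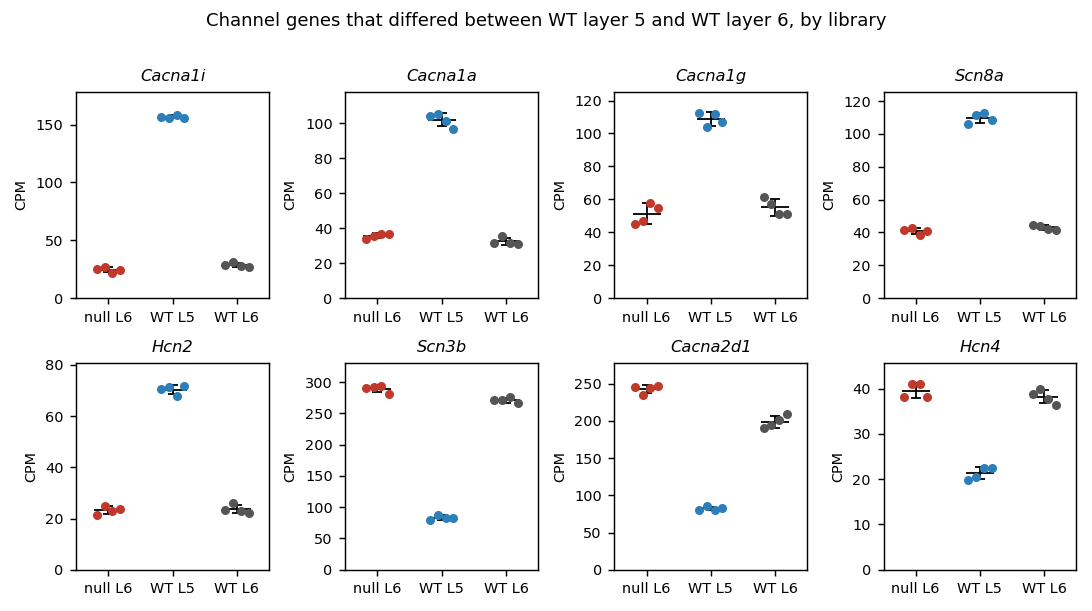
CPM of 8 channel genes (y axes from 0) in each library of Tbr1 null L6, WT L5 and WT L6 (x axes); points are libraries in replicate order, horizontal bars the group mean and whiskers the SD over 4 libraries. Layer 5 stands above both layer 6 groups for Cacna1i, Cacna1a, Cacna1g, Scn8a and Hcn2, and below them for Scn3b, Cacna2d1 and Hcn4.

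The layer 5 libraries differed from layer 6 in the markers of other cell types. Astrocyte markers summed to 9133 to 9198 CPM in WT L5 and 1485 to 1662 CPM in WT L6, and 14 of 15 were higher and 1 lower. Oligodendrocyte lineage markers summed to 1248 to 1259 CPM in WT L5 and 281 to 293 CPM in WT L6 (12 of 12 tested higher), microglia markers to 406 to 418 CPM in WT L5 and 138 to 146 CPM in WT L6 (13 of 13 higher), and vascular markers to 939 to 963 CPM in WT L5 and 476 to 483 CPM in WT L6 (12 of 13 higher). Cortical excitatory neuron markers summed to 1030.0 to 1110.0 CPM in WT L5 and 2126 to 2325 CPM in WT L6, with 2 higher and 8 lower of 10, and the 10 layer 5 projection neuron markers to 451 to 467 CPM in WT L5 and 975 to 1036 CPM in WT L6, with 3 higher and 6 lower, so that the summed level of that list was lower in the libraries labelled layer 5. Interneuron markers summed to 320.1 to 330.3 CPM in WT L5 and 570.1 to 594 CPM in WT L6. The part of these shifts, as of the batch, in the channel differences was not tested. With layer 5 libraries of batch B alone or of batch C alone, 24 members were called in each case, 14 higher and 10 lower; those batches are not independent if they hold the same samples. With the layer 5 libraries closest in counts summed, and those of layer 6 that share a label digit, the counts were again 14 and 10. All of these counts include Scn4b, Scn7a and Cacna2d4.

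The null and the layer comparison share the WT L6 libraries, so no agreement between them is counted, and the log2 fold changes over WT L6 are set side by side. Cacna2d1 had 0.29 in the null and -1.28 in WT L5, and Cacna2d3 had 0.53 in the null and -0.69 in WT L5. Cacnb2 had 0.69 in the null and 0.55 in WT L5. Scn2a1 had -0.42 in the null and -0.35 in WT L5. These genes were called in both comparisons, the alpha2delta genes in opposite directions and Cacnb2 and Scn2a1 in 1 direction each. Cacna1i, also called in both, had -0.22 in the null and 2.45 in WT L5.

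Compared with WT L5 directly, null L6 had more Scn3b, Cacna2d1, Cacna2d3, Hcn4 and Scn3a, and less Cacna1i, Hcn2, Cacna1a, Scn8a, Cacna1g and Scn2b. Of the 29 members tested in every comparison, 13 were higher and 11 lower in the null; over all 15013 genes 84.3% passed, 42.4% higher and 41.8% lower. Groups did not overlap for 24 of the 29 members, against 79.9% of all genes, and the median log2 fold change was 0.13 over the 29 members and -0.0035 over all genes. Cacna1i was 6.40-fold lower in the null (log2 fold change -2.68 ± 0.049, adjusted p = 4.89e-16) and Scn3b 3.47-fold higher (1.79 ± 0.034, adjusted p = 8.58e-16). For Cacna2d1 and Cacna2d3, which were highest in the null, the log2 fold changes over layer 5 were 1.56 ± 0.031 and 1.22 ± 0.064, with adjusted p values of 1.54e-15 and 8.32e-11. Genotype, layer and sequencing batch all differ between these groups and cannot be told apart. Astrocyte markers summed to 1741 to 1793 CPM in null L6 and 9133 to 9198 CPM in WT L5 (15 of 15 lower). Cortical excitatory neuron markers summed to 1998 to 2136 CPM in null L6 and 1030 to 1110 CPM in WT L5. Of these 10 markers, 8 were higher and 2 lower in the null. The part of these shifts in the channel differences was not tested.

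Scn2a1 did not pass between null L6 and WT L5, at a log2 fold change of -0.07 ± 0.034 (95% interval -0.14 to 0.0042, adjusted p = 0.0732). It passed in 5 alternative settings (adjusted p from 0.000392 to 0.0485), among them without null library 1 and without WT L5 library 3. Scn1a, Scn9a and Nalcn, which did not pass between layers, were higher in the null than in WT L5, by 0.40 ± 0.070, 0.56 ± 0.088 and 0.19 ± 0.043 on the log2 scale (adjusted p = 8.72e-05, 2.75e-05 and 8.41e-04). The null libraries here are the same as those compared with WT L6, so these are not separate results. Cacnb2, higher in both groups than in WT L6, had a log2 fold change of 0.13 ± 0.078 between them and did not pass (adjusted p = 0.139); without null library 2 the adjusted p was 0.0493.

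Ratios of reads within a library show how the balance of related channels shifted; they are not ratios of molecules, since gene lengths differ. Scn8a reads per Scn2a1 read averaged 0.184 ± 0.0102 in null L6, 0.470 ± 0.0221 in WT L5 and 0.145 ± 0.00586 in WT L6 (SD, n = 4 each). Scn1a reads per Scn2a1 read averaged 0.104 ± 0.00563 in null L6, 0.0760 ± 0.00791 in WT L5 and 0.0648 ± 0.00410 in WT L6. Both ratios were above WT L6 in every null library, and for Scn8a every layer 5 library was higher still. Both have Scn2a1 as the lower term, which was itself called lower in the null, so they are not separate results. Scn8a was not called in the null, at a log2 fold change of -0.077 (adjusted p = 0.311). Scn2b reads per Scn3b read averaged 0.0475 ± 0.00759 in null L6, 0.298 ± 0.0154 in WT L5 and 0.0604 ± 0.00775 in WT L6. Cacna1i reads per Cacna1h read averaged 0.198 ± 0.0189 in null L6, 1.52 ± 0.0228 in WT L5 and 0.211 ± 0.0132 in WT L6. For the beta subunit pair and the T-type pair the layer 6 groups overlapped, and every layer 5 library was far above both.

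**Figure D4:**
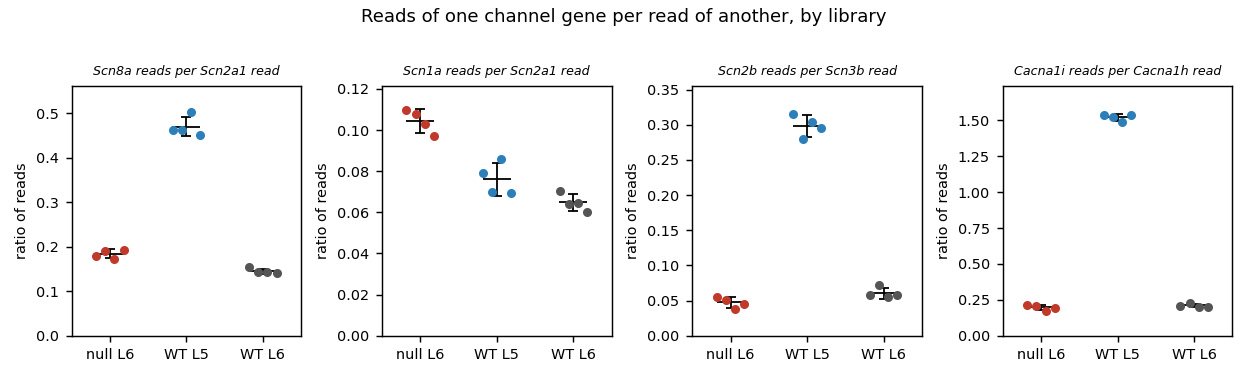
Ratio of reads (y axes from 0) for 4 pairs of channel genes in each library of Tbr1 null L6, WT L5 and WT L6 (x axes); points are libraries in replicate order, horizontal bars the group mean and whiskers the SD over 4 libraries. Layer 5 is the highest group for Scn8a per Scn2a1, Scn2b per Scn3b and Cacna1i per Cacna1h, and null L6 is the highest for Scn1a per Scn2a1.

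Cacna1b, the pore of N-type channels at presynaptic endings, split the WT L6 libraries. It had 102, 112, 104 and 102 CPM in null L6, 139, 145, 141 and 144 CPM in WT L5 and 165, 170.3, 94.8 and 94.1 CPM in WT L6. WT L6 libraries 1 and 2 lay above all other libraries and libraries 3 and 4 below all others. The log2 fold change was -0.32 ± 0.17 for null over WT L6 (adjusted p = 0.251) and 0.11 ± 0.16 for WT L5 over WT L6 (adjusted p = 0.513). In settings added after the data were seen, the null difference was -0.68 without WT L6 libraries 3 and 4 (adjusted p = 1.91e-06) and 0.15 without libraries 1 and 2 (adjusted p = 0.0668), and the layer difference was -0.25 without libraries 3 and 4 (adjusted p = 1.17e-08) and 0.56 without libraries 1 and 2 (adjusted p = 2.51e-14). No direction is therefore given for Cacna1b against WT L6, while between null L6 and WT L5 the log2 fold change was -0.44 ± 0.034 (adjusted p = 1.11e-08).

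The ratio of WT L6 libraries 1 and 2 to libraries 3 and 4 was 1.78 for Cacna1b and between 0.877 and 1.18 for the 27 other members compared. The lowest of these was Cacna2d2 and the highest Cacnb2. Cacnb1, at 1.165, was close to Cacnb2 at 1.182, Cacna1g at 1.157 and Scn2b at 1.148, so its ratio does not set it apart. In the RefSeq order, the 3 nearest protein-coding genes on each side of Cacna1b with a mean of at least 1 CPM were also compared. Among them Ehmt1, a histone methyltransferase gene next to Cacna1b in that order, had a ratio of 1.17. It had 190.3, 194, 162 and 167 CPM in WT L6 libraries 1 to 4. The others had ratios of 0.737 to 1.02, the lowest being that of Psd4, at only 0.520 to 1.11 CPM in WT L6. Xist split the same libraries in the opposite sense, as given above. Cacnb1, a beta subunit, had 54.9, 55.7, 58.1 and 54.7 CPM in null L6, 69.7, 71.3, 71.0 and 69.6 CPM in WT L5 and 66.3, 63.4, 55.9 and 55.4 CPM in WT L6, and its null log2 fold change was -0.22 without WT L6 libraries 3 and 4 (adjusted p = 0.0111) and 0.0051 without libraries 1 and 2 (adjusted p = 0.966).

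The window before the start of Cacna1b is shown because it was the 1 window of a member with a match to the T-box core motif GGTGTGA, printed in capitals; the motif and its reverse complement TCACACC were searched on the 250 bases.
Cacna1b window, chr2:24763153-24763402, minus strand: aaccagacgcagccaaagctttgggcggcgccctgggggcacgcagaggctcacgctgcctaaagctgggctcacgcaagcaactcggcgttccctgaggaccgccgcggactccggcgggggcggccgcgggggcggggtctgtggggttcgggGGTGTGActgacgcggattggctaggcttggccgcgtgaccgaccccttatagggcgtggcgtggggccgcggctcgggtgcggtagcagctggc
A match was present in 1 of 36 windows of the members (2.78%) and in 3.33% of all windows. A match is a description of the letters and not a site of binding, and the deposited TBR1 peaks were not set against it, since they are on another genome build.

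**Figure D5:**
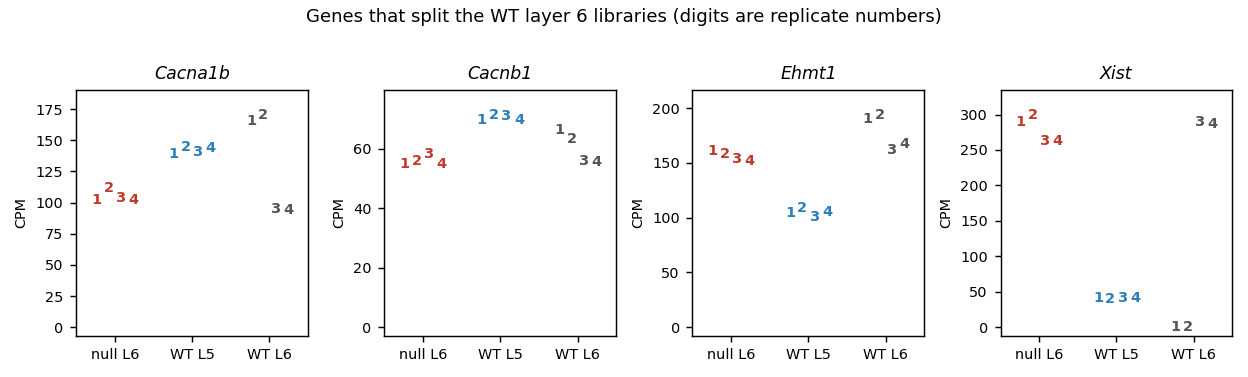
CPM (y axes) of the channel genes Cacna1b and Cacnb1, of Ehmt1 and of Xist in Tbr1 null L6, WT L5 and WT L6 (x axes); each digit is a library, written as its replicate number at its value. WT L6 libraries 1 and 2 lie above 3 and 4 for Cacna1b, Cacnb1 and Ehmt1, and near 0 for Xist.

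Genes that bind, anchor or modulate these channels were followed as a list of 52, of which 50 were in the table. In null over WT L6, 9 of 48 tested were higher and 10 lower, which is 39.6% of them, against 14.2% of all genes tested. Values for this list are from the main fit, which treats libraries that share a label digit as independent. Alternative settings were not examined for the list. The median log2 fold change was 0.013 over the list and 0.00034 over all genes. Cntn2, an axonal adhesion molecule that gathers potassium channels near nodes together with the product of Cntnap2, had 699.8 ± 24.1 CPM in the null and 1000.3 ± 18.3 CPM in WT L6, a log2 fold change of -0.52 ± 0.030 (adjusted p = 1.39e-07). Cntnap2 itself had a log2 fold change of -0.26 ± 0.034 (adjusted p = 1.96e-04). Stac2, an adaptor that binds L-type channels, had 5.75 ± 0.292 CPM in the null and 13.4 ± 2.48 CPM in WT L6, a log2 fold change of -1.23 ± 0.12 (adjusted p = 1.47e-05). Rimbp2, which ties calcium channels to the release site, fell by 0.48 on the log2 scale (adjusted p = 8.77e-05). Nedd4l, a ubiquitin ligase that withdraws sodium channels from the surface, and Cntn1, an adhesion molecule that binds sodium channel beta subunits, rose by 0.23 and 0.19 (adjusted p = 2.20e-04 and 9.04e-04).

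In WT L5 over WT L6, 29 of 49 tested genes of this list were higher and 14 lower, which is 87.8%, near the 85.5% of all genes. The median log2 fold change was 0.37 over the list and -0.010 over all genes. Unc80, a subunit of the Nalcn complex, averaged 69.1 ± 1.27 CPM in WT L5 and 12.8 ± 0.899 CPM in WT L6 (SD, n = 4 each), a log2 fold change of 2.43 ± 0.046 (adjusted p = 2.07e-15), while Nalcn itself did not pass. Ank2 and Sptbn1, an ankyrin and a spectrin of the membrane skeleton, had log2 fold changes of 1.83 ± 0.022 and 1.37 ± 0.018 (adjusted p = 2.54e-17 and 5.51e-17). Rims2, an active zone scaffold, was higher by 1.74 ± 0.036 and Cntn2 lower by a log2 fold change of -3.74 ± 0.025 (adjusted p = 4.49e-15 and 1.65e-19). Between null L6 and WT L5, 10 of 48 tested were higher and 29 lower, which is 81.2%, near the 84.3% of all genes.

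Some members had hardly any reads. Cacna1f, an L-type pore of the retina, Scn4a, the sodium channel of skeletal muscle, and Scn10a, a sodium channel of sensory neurons, had at most 6, 4 and 5 reads in any library and were tested in no comparison. Scn11a, another sodium channel of sensory neurons, had 3 to 16 reads and was tested only between null L6 and WT L5, where it did not pass (log2 fold change -0.56 ± 0.41, adjusted p = 0.208). Scn4b, Scn7a and Cacna2d4 had too few reads for the test between the layer 6 groups.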

How the data were processed

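Per the labels' protocols, a stranded kit with ribosomal RNA depletion was used on total RNA of the sorted cells. The table of counts that the authors deposited gives whole numbers of reads for 24015 genes. Per the submitters' processing notes, STAR 2.5.2b, HTSeq and bedtools and the build mm9 were used; no label or header names the annotation or how strand was treated in counting. The other table that the authors deposited lists scores, rounded to whole numbers and equalised between libraries, for 14567 genes; it served only for the sign of called members, after adding a pseudocount of 1 and taking log2. Columns without a sample numbered 0.

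Counts were tested with edgeR 4.0.16 (R 4.3.3): TMM, filterByExpr by group, the quasi-likelihood test with only the 2 compared groups in the fit, Benjamini-Hochberg over all genes tested, called at an adjusted p under 0.05. Fold changes come from these fits, and SE is the log2 fold change over the root of F. Alternatives used DESeq2 1.42.0, limma 3.58.1, other scalings and filters, and fewer libraries. In simulated null L6 and WT L6 counts of 14588 genes, 62% of the changes of 1.25-fold were recovered, 76% of 1.5-fold, 90% of 2-fold and 100% of 4-fold, and 7 unchanged genes were called. The simulated libraries were drawn independently of each other. The real layer 6 libraries that share a label digit had a within-pair correlation of 0.407. The simulated shares and false calls therefore do not carry over to libraries paired in this way.

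Members and lists were chosen with earlier results of these data known. Values per library are given for up to 14 called members per comparison, by size of log2 fold change at a mean of at least 1 CPM, and for the member with most reads in each family; of the partner list, the 6 smallest adjusted p values are named. Values of 4 genes in these sets are not reported here, though totals and medians include them. Promoter windows and the T-box motif were chosen after values were seen. The 6 ChIP-seq samples and their 4 peak lists were not used here, since they are on mm9 and the gene positions at hand are on GRCm38.p6.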

Additional observations from a re-analysis of the deposited data

Results flagged for a closer look

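In 99 groups of 4 libraries, those of the 33 members tested in a comparison, 6 had 1 library far from the other 3 by Dixon's gap test, near the 5% that chance gives. In WT L6, library 2 had 35.5 CPM of Cacna1a (the other libraries 31.1 to 31.8 CPM) and 19.5 CPM of Scn2b (15.2 to 15.5 CPM). Library 1 of WT L6 had 119 CPM of Cacna1e (127 to 128 CPM) and 43.8 CPM of Nalcn (38.7 CPM in each of the others). In null L6, library 1 had 150.9 CPM of Scn3a (143 to 144 CPM). In WT L5, library 2 had 2.31 CPM of Scn4b (1.73 to 1.82 CPM).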

How the results depend on the processing

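Of 29 members tested, 15 were called between null and WT L6. The count was 14 to 16 with another scaling, filter or test or all libraries in 1 fit, and 11 to 14 with 1 library left out. It was 6, of 31 tested, with libraries that share a label digit summed. With that pair as a random term in limma, which leaves out no library, it was 8. The count was 8 without WT L6 libraries 1 and 2 but 13 without WT L6 libraries 3 and 4. The share of all genes called was computed only in the main fit of each comparison. Settings with fewer libraries have fewer residual degrees of freedom, and the part of this in the counts was not tested. All 15 called members had the same sign in the deposited scores. Between WT L5 and WT L6 the count of 24, with the 3 members that passed the filter only through WT L5, was 24 to 28 over all settings and 24 to 26 with 1 library left out; between null L6 and WT L5 the count of 27, likewise, was 26 to 30 over all settings and 27 to 30 with 1 library left out. No called member changed direction in any setting. Upper-quartile scaling moved the median of all genes to 0.0820 between layers and to -0.0916 between null and layer 5. Replicate numbers did not pair the libraries (correlations of deviations from -0.149 to 0.0199); with the replicate block, 13, 24 and 27 members were called in the 3 comparisons. The comparison of TBR1 regions near members, with its windows and peak threshold, was not run, for want of gene positions on mm9.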

Other observations

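Cacna1s, the L-type pore of skeletal muscle, lies outside the set and was looked at after its values were seen. It had 0 to 2 reads in null L6 libraries, 24 to 41 reads in WT L5 libraries and 0 to 1 read in WT L6 libraries.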
